A study of Mus musculus with 12 samples.

Results

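A set of 10 genes known as markers of pluripotent mouse cells, other than the core transcription factors, was followed across reprogramming: Dppa2, Dppa3, Dppa4, Dppa5a, Utf1, Morc1, L1td1, Eras, Tcl1 and Fbxo15. They were listed by name, with no threshold on a measured value but with earlier results of these data known, and they are 10 of the 37583 genes counted. Poly-A RNA was sequenced from 12 samples of mouse cells of strain 129SV/Jae/C57BL6J, 2 in each of 6 groups. The end point was induced pluripotent stem cells (iPSC), grown in ES medium. Between it and the starting cells lay 4 populations that were sorted by flow cytometry during reprogramming, in ES medium to which dox and AA had been added. All 4 carried the surface antigen SSEA1. On day 6, d6_Eff cells carried EpCAM and lacked Sca1, and d6_Ineff cells lacked EpCAM and carried Sca1. On day 3, d3_Eff cells carried CD73 and lacked Sca1, and d3_Ineff cells lacked CD73 and carried Sca1. The starting cells were embryonic fibroblasts (MEF) in MEF medium. All cells, MEF and iPSC included, were trypsinised, stained and sorted. Medium and sort therefore differ with the group, and the reprogramming cassette, the number of iPSC clones and the origin of the replicates are not stated in the sources used here.

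Pluripotent cells keep a set of genes active that most somatic cells silence, many of which are otherwise used in the early embryo and the germ line. The 10 genes act downstream of or beside the core factors. Dppa2, Dppa4, Dppa3, Utf1 and Morc1 encode proteins that act on chromatin or DNA methylation, L1td1 and Dppa5a encode RNA-binding proteins, Eras and Tcl1 encode signalling proteins of the PI3K and AKT pathway, and Fbxo15 encodes a subunit of a ubiquitin ligase. In reprogramming fibroblasts such genes are commonly used to tell early from late stages.

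Between 9284060 and 22763548 reads per library were assigned to genes. MEF replicate 2 was the shallowest library, with 47.2% of its reads outside genes, out of those in genes, outside them or ambiguous, and d6_Eff replicate 2 had 24.1%, against 5.10% to 11.7% elsewhere. Levels are counts per 1000000 after TMM scaling (CPM), and on the log2 scale replicates correlated across genes at r = 0.950 for MEF and 0.987 or more for every other group. The labels were set against marker lists. All 15 pluripotency transcription factors on the list had counts in both iPSC libraries. The 12 fibroblast markers summed to 667 and 666 CPM in iPSC and to 58067 and 20459 CPM in MEF. Differences are log2 fold changes ± SE from edgeR's quasi-likelihood test. A gene is called where its p, adjusted by Benjamini and Hochberg's method over all 16240 genes tested, was under 0.05. The p-values measure the spread between 2 samples per group, which may be technical.

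All 10 genes were called higher in iPSC than in MEF, where 26% of all genes tested were called higher. They fell into different time courses before that end point. L1td1 stood at its full iPSC level by day 3, Fbxo15, Utf1 and Morc1 were detected on day 3 and stayed below iPSC, Eras and Dppa5a stayed under 1 CPM on day 3 and exceeded 4 CPM on day 6 in Eff cells alone, and Dppa2, Dppa3, Dppa4 and Tcl1 were at or under 3 counts per group in every group but iPSC. Taking early to mean called higher than MEF in both day 3 groups, and late to mean called higher in iPSC than in d6_Eff, 4 of 10 genes were early and 9 of 10 were late. Of all genes tested, 13.6% were late. The share of all genes called in both day 3 groups was not counted. In each alone, 15% (d3_Ineff) and 18% (d3_Eff) of all genes were called higher than MEF. L1td1 was early and not late. Fbxo15, Utf1 and Morc1 were both, since they had begun by day 3 and were still below iPSC on day 6. The other 6 genes were late and not early. All 10 genes passed the filter on low counts, 4 of them through the iPSC libraries alone, so that for Dppa2, Dppa3, Dppa4 and Tcl1 a difference was built into passing. In bulk RNA, fewer cells that express a gene and less RNA per cell cannot be told apart.

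**Figure D1:**
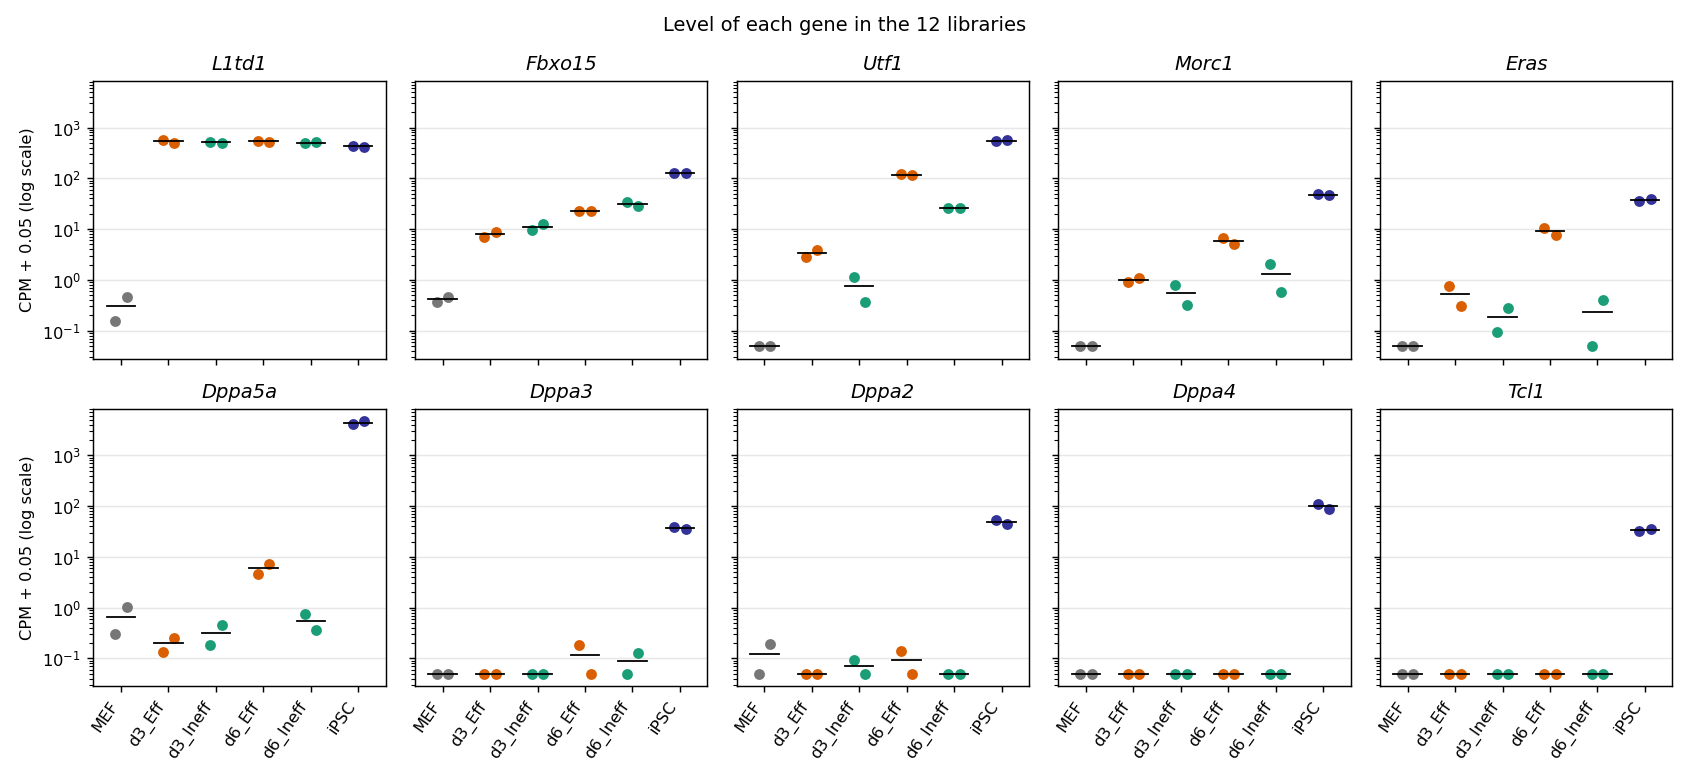
CPM plus 0.05 on a log axis for each of the 10 genes in MEF, d3_Eff, d3_Ineff, d6_Eff, d6_Ineff and iPSC; each dot is 1 of 2 libraries and each line the group mean. L1td1 is at about its iPSC height in all 8 libraries of days 3 and 6, whereas Dppa4 and Tcl1 are at 0 in the 10 libraries outside iPSC.

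Counted by comparison, 4 of the 10 genes were called higher in d3_Ineff than in MEF (L1td1, Fbxo15, Utf1 and Morc1), where 15% of all genes were. In d3_Eff the same 4 genes and Eras were called, 5 of 10, where 18% of all genes were called higher than in MEF. On day 6, 4 of 10 genes were called in d6_Ineff (15.6% of all genes), again L1td1, Fbxo15, Utf1 and Morc1. In d6_Eff, 6 of 10 were called (20.9% of all genes), these 4 with Eras and Dppa5a. The median log2 fold change over MEF was 2.23 in d3_Ineff, 2.25 in d3_Eff, 4.04 in d6_Ineff, 4.84 in d6_Eff and 12.49 in iPSC, against 0.00 to 0.04 over all genes tested. Both day 3 medians are midpoints between a gene at 0 and one above it, Eras at 4.45 in d3_Ineff and Fbxo15 at 4.50 in d3_Eff. None of the 10 genes lay near them. Medians for genes at 0 counts in MEF depend on the prior count of the fit. These comparisons share the MEF libraries. By edgeR 0 of the 10 genes were called lower in any comparison, and 0 were lower at an unadjusted p under 0.05. DESeq2 called 1, Dppa5a in d3_Eff against MEF, where edgeR called 18.6% of all genes lower.

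Set against the iPSC mean of the same gene, the 4 sorted populations spanned the whole range. L1td1 stood at 126% in d3_Eff, 119.7% in d3_Ineff, 124% in d6_Eff and 118% in d6_Ineff. Fbxo15 stood at 6.24%, 8.69%, 17.8% and 24.2% in the same order. Utf1 was at 0.598% in d3_Eff, 0.127% in d3_Ineff, 21.3% in d6_Eff and 4.72% in d6_Ineff. For Morc1 the shares were 1.99%, 1.06%, 12.1% and 2.66%, and for Eras 1.29%, 0.365%, 24.1% and 0.485%. Dppa5a did not exceed 0.135% and Dppa3 0.181% in any of them. The count of genes at 10% or more of iPSC was 1 in each day 3 population, 5 in d6_Eff and 2 in d6_Ineff.

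**Figure D2:**
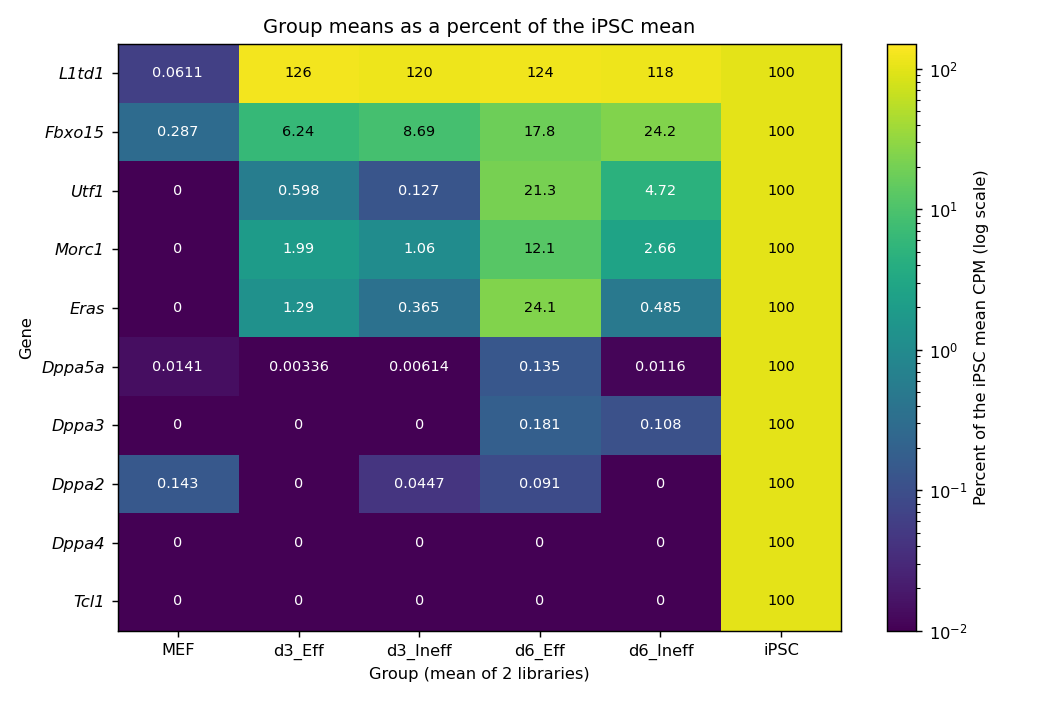
Group mean CPM of each gene as a percent of its iPSC mean, with the colour on a log scale and the value written in each cell; columns are the 6 groups. L1td1 exceeds 100 in all 4 sorted populations, Fbxo15, Utf1, Morc1 and Eras lie between 12.1 and 24.1 in d6_Eff, and the remaining 5 genes stay under 1 outside iPSC.

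Of the 10 genes, 4 were matched to the RefSeq promoters used here. These 4 cover the time courses above: L1td1 (early), Utf1 (both), Eras (day 6) and Tcl1 (iPSC alone). They are shown so that the letters upstream of early and late genes can be read side by side. Promoters of the other genes, Fbxo15 among them, were not compared. Each run gives 250 bases before to 50 bases after the annotated start, 5′ to 3′ on the gene's strand, with CpG dinucleotides in capitals, from RefSeq on GRCm38.p6. The windows are chr4:98726504-98726803 on the plus strand for L1td1, chr7:139943606-139943905 on the plus strand for Utf1, chrX:7928558-7928857 on the minus strand for Eras and chr12:105222688-105222987 on the minus strand for Tcl1.
L1td1: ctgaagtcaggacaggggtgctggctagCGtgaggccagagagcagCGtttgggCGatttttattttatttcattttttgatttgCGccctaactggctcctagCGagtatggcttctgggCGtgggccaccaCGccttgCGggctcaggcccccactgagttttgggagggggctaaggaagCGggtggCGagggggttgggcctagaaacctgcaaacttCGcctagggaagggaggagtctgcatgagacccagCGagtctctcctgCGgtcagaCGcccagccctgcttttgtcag
Utf1: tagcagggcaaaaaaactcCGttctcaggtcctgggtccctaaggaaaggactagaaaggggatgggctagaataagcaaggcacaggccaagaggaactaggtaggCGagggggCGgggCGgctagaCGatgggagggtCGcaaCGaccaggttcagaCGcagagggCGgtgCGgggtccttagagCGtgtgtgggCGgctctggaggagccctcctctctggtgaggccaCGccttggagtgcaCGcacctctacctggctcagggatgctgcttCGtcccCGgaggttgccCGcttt
Eras: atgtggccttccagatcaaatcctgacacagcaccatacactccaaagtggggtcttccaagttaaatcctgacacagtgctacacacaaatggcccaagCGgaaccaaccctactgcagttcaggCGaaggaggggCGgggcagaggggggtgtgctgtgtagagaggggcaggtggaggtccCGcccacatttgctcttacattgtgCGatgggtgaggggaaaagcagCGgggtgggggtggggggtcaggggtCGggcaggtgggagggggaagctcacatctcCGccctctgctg
Tcl1: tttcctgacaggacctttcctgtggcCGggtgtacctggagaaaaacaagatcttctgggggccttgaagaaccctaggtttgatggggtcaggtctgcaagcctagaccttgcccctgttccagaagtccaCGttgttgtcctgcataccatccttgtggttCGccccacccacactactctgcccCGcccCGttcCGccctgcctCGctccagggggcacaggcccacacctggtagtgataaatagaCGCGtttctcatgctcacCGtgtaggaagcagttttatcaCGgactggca
The Utf1 window held 17 CpG, the L1td1 window 14, the Tcl1 window 11 and the Eras window 8, against a median of 7 over 32841 promoters of the same length. GC content was 62.0% for Utf1, 58.7% for L1td1, 56.7% for Tcl1 and 60% for Eras, against a median of 52.7%. Next, 5 motifs were searched on both strands: CACGTG (an E-box), TGCAAAT (most of an octamer), ACAAAG (a Sox motif), TCCCGCC (an E2F motif) and CCGGAAG (an Ets motif). The one match was TCCCGCC in Eras, 69 bases before the start on the gene's own strand. TCCCGCC is found in 11.3% of the 32841 promoters, CACGTG in 7.15%, TGCAAAT in 4.02%, ACAAAG in 18.7% and CCGGAAG in 8.86%.

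Among the genes that act on chromatin, Dppa2 (ENSMUSG00000072419, chromosome 16) and Dppa4 (ENSMUSG00000058550, chromosome 16) encode related SAP-domain proteins that bind DNA as a pair in mouse embryonic stem cells. Dppa4 had 110.2 and 89.4 CPM in the iPSC libraries and no count in any of the other 10. Over the summed reads of both libraries of a group, that is at least 902-fold higher than MEF (adjusted p = 1.20e-05) and at least 1342-fold higher than d6_Eff (adjusted p = 2.33e-05). With 3 counts over a group as the limit, the absence of counts allows up to 0.113 CPM in MEF and 0.0760 CPM in d6_Eff. Dppa2 had 53.5 and 44.4 CPM in iPSC, against 0.0891 and 0 CPM in d6_Eff and 0 and 0.140 CPM in MEF. The d6_Eff value rests on 2 reads and the MEF value on 1 read. The ratio of iPSC to d6_Eff was 985 (exact 95% interval 272 to 8141, counting error only; adjusted p = 2.04e-05 by edgeR). Both genes were therefore seen in iPSC and at the limit of detection on days 3 and 6, in Eff and Ineff cells alike.

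Dppa3 (ENSMUSG00000046323, chromosome 6), also called Stella, protects DNA methylation of the maternal genome in the mouse zygote and binds Uhrf1. It had 38.1 and 35.8 CPM in iPSC, against 0.134 and 0 CPM in d6_Eff and 0 and 0.0797 CPM in d6_Ineff. No Dppa3 read was counted in day 3 cells or MEF. The ratio of iPSC to d6_Eff, which held 3 reads, was 490 (exact 95% interval 167 to 2378; adjusted p = 9.38e-05). Uhrf1 itself, which recruits the maintenance methyltransferase, was already expressed in MEF and was higher on day 3. It had 333 and 282 CPM in d3_Eff and 66.5 and 37.1 CPM in MEF (log2 fold change 2.56 ± 0.25, adjusted p = 2.07e-05).

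Utf1 (ENSMUSG00000047751, chromosome 7) binds chromatin in embryonic stem cells and limits the loading of Polycomb complexes at its targets. Its counts climbed at each step: 0 and 0 CPM in MEF, 2.73 and 3.90 CPM in d3_Eff, 121 and 114 CPM in d6_Eff, and 541 and 567 CPM in iPSC. The Ineff course ran below it, with 1.09 and 0.317 CPM in d3_Ineff and 26.1 and 26.3 CPM in d6_Ineff. No library of an earlier step overlapped with one of a later step within either course. From day 3 to day 6 the log2 fold change was 5.16 ± 0.36 in Eff cells (adjusted p = 3.95e-05) and 5.19 ± 0.40 in Ineff cells (adjusted p = 0.000191). Utf1 in iPSC was a further 2.23 ± 0.31 above d6_Eff (adjusted p = 0.000381).

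Morc1 (ENSMUSG00000022652, chromosome 16) encodes a MORC-family ATPase needed for transposon silencing in mouse male germ cells. It had 0.867 and 1.04 CPM in d3_Eff, 6.50 and 5.11 CPM in d6_Eff and 49.0 and 46.6 CPM in iPSC, with no count in MEF. It had 0.743 and 0.271 CPM in d3_Ineff and 2.03 and 0.518 CPM in d6_Ineff. The day 3 calls rest on 40 reads in d3_Eff (adjusted p = 0.00669) and 23 reads in d3_Ineff (adjusted p = 0.0264). Leaving out replicate 1 of MEF (adjusted p = 0.1253) or replicate 1 of d3_Ineff (adjusted p = 0.112) ended the d3_Ineff call, and a fit of the MEF and d6_Ineff libraries alone ended the d6_Ineff call (adjusted p = 0.0801). Compared with d6_Eff, iPSC were higher by 3.04 ± 0.53 (adjusted p = 0.00172).

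Of 10 germline genes of transposon silencing, 7 could be tested. In iPSC, 6 of these were called higher than in MEF (26% of all genes) and 4 higher than in d6_Eff (13.6% of all genes), among them Ddx4, a germ cell RNA helicase, Mael and Mov10l1, which acts with Piwi proteins. Ddx4 was called lower than MEF on day 3, from 2 reads in d3_Eff (adjusted p = 0.0434) and 0 reads in d3_Ineff (adjusted p = 0.0155), against 14 reads in MEF. Mov10l1 had 8.94 and 8.89 CPM in iPSC and 0 CPM in all other libraries, so a difference was built into its passing the filter. Piwil2, a Piwi protein, came earlier, with 14.8 and 12.1 CPM in d6_Eff and 12.9 and 11.1 CPM in d6_Ineff, against 0.206 and 1.95 CPM in MEF. The log2 fold change over MEF was 3.98 ± 0.76 in d6_Eff (adjusted p = 0.00143) and 3.81 ± 0.76 in d6_Ineff (adjusted p = 0.00277).

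Among the RNA-binding proteins, L1td1 (ENSMUSG00000087166, chromosome 4) derives from a domesticated LINE-1 open reading frame. It had 579 and 499 CPM in d3_Eff and 529 and 495 CPM in d3_Ineff, against 0.103 and 0.419 CPM in MEF. On day 6 it had 544 and 517 CPM in d6_Eff and 491 and 514 CPM in d6_Ineff, and iPSC had 433 and 421 CPM. All 8 libraries of days 3 and 6 lay above both iPSC libraries. The difference of iPSC to d6_Eff was −0.31 ± 0.21 and was not called (adjusted p = 0.292), but it was called in a fit of these 4 libraries alone (−0.28, adjusted p = 0.0195). L1td1 did not move beyond its error between days 3 and 6, with a log2 fold change of −0.02 ± 0.21 in Eff cells and −0.03 ± 0.21 in Ineff cells.

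The endothelial marker list moved in the same direction as L1td1 at day 3. Its 6 genes summed to 147 and 116 CPM in d3_Eff, 161 and 154 CPM in d3_Ineff, and 3.66 and 2.09 CPM in MEF. Tek, an angiopoietin receptor, made up most of this, with 139 and 112 CPM in d3_Eff. Emcn was at 0 in all day 3 libraries and Cdh5, which joins endothelial cells, reached at most 3.76 CPM there. Of 5 tested markers, 4 were called higher than in MEF in d3_Eff (18% of all genes) and 3 in d3_Ineff (15% of all genes). In iPSC the list summed to 9.02 and 5.60 CPM while L1td1 stayed high. The part of such cells in the L1td1 level was not tested.

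Dppa5a (ENSMUSG00000060461, chromosome 9), also called Esg1, encodes a small KH-domain protein. It was the most abundant of the 10 in iPSC, with 4119 and 4641 CPM, from 95877 and 70473 reads. It had 4.45 and 7.34 CPM in d6_Eff and 0.695 and 0.319 CPM in d6_Ineff. On day 3 it had 0.0867 and 0.208 CPM in d3_Eff and 0.131 and 0.407 CPM in d3_Ineff, and MEF had 0.258 and 0.977 CPM. The d6_Eff libraries were thus above every other sorted library and MEF, and far below iPSC. The log2 fold change was 3.58 ± 0.56 for d6_Eff over MEF (adjusted p = 0.000394), 5.30 ± 0.61 for d6_Eff over d3_Eff (adjusted p = 0.000334) and 9.54 ± 0.53 for iPSC over d6_Eff (adjusted p = 5.96e-07). In d3_Eff both libraries lay below both MEF libraries, from 6 reads against 12 (−1.72 ± 0.88, adjusted p = 0.153; adjusted p = 0.0256 without MEF replicate 1 and 0.0495 by DESeq2).

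Levels of different genes were compared per kilobase of exon. In iPSC, Dppa5a stood at 7076 ± 597 CPM per kb (SD, n = 2), Utf1 at 451 ± 14.9, L1td1 at 135 ± 2.72 and Dppa4 at 60.03 ± 8.84. Below these, Dppa3 was at 41.4 ± 1.89, Fbxo15 at 37.7 ± 0.762 and Eras at 34.3 ± 1.68 CPM per kb. Dppa2 at 20.0 ± 2.63 and Tcl1 at 18.3 ± 0.939 did not differ beyond their spread, and Morc1 was lowest at 7.38 ± 0.256 CPM per kb. In d6_Eff the order was another one, led by L1td1 at 167 and Utf1 at 96.0 CPM per kb, with Dppa5a at 9.52, Eras at 8.28, Fbxo15 at 6.70 and Morc1 at 0.896. Exact copies of part of their sequence occur in transcripts of other genes, mostly pseudogenes, for 38.6% of 50-base words in Dppa5a, 31.3% in Dppa4, 29.1% in Dppa2 and 16.5% in Dppa3. Reads from such stretches may have been left out, so those levels are uncertain.

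Eras and Tcl1 both feed the PI3K and AKT pathway: Eras (ENSMUSG00000031160, chromosome X) is a Ras-like protein that is active without a stimulus and engages PI3K, and Tcl1 (ENSMUSG00000041359, chromosome 12) binds AKT kinases and raises their activity. Tcl1 had 32.5 and 35.0 CPM in iPSC and no count in any other library, at least 296-fold above MEF (adjusted p = 8.00e-05) and at least 441-fold above d6_Eff (adjusted p = 0.000141). By DESeq2 both calls were lost, with adjusted p = 0.0870 and 0.0641. Of 20 relatives of the 10 genes that were matched, 11 could be tested, and 3 were called higher and 3 lower in iPSC than in MEF, where 26% of all genes were called higher and 26.7% lower, so these shares are near those of all genes. The relatives of Tcl1 in its own family, Tcl1b1 to Tcl1b5, had no count in any library, iPSC included.

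Eras had 35.7 and 38.3 CPM in iPSC, against 10.3 and 7.51 CPM in d6_Eff and 0 and 0.359 CPM in d6_Ineff. It had 0.693 and 0.260 CPM in d3_Eff, 0.0437 and 0.226 CPM in d3_Ineff and no count in MEF. The step from d3_Eff to d6_Eff was 4.18 ± 0.71 (adjusted p = 0.00472, and 0.0573 without d3_Eff replicate 2). Eras in iPSC exceeded d6_Eff by 2.05 ± 0.59 (adjusted p = 0.0248). This call was lost without d6_Eff replicate 1 or 2 (adjusted p = 0.0815 and 0.151) and without iPSC replicate 1 or 2 (adjusted p = 0.112 and 0.131). The d3_Eff call over MEF rests on 21 reads (adjusted p = 0.0364). It was lost without MEF replicate 1 (0.130), d3_Eff replicate 1 (0.160), d6_Eff replicate 1 (0.0503) or d6_Eff replicate 2 (0.0501, all adjusted p).

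Exons of Eras overlap those of Pcsk1n, a gene on the opposite strand, and the counting ignored strand. Pcsk1n had 18.7 and 21.02 CPM in d6_Eff, 65.4 and 48.1 CPM in d6_Ineff and none in MEF. On day 3 it had 56.6 and 86.8 CPM in d3_Eff and 37.8 and 33.2 CPM in d3_Ineff. Pcsk1n was thus lower in d6_Eff than in d6_Ineff, opposite to Eras, but higher in d3_Eff than in d3_Ineff and MEF, in the same direction as Eras. The part of Pcsk1n reads in the Eras counts was not tested.

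The kinase genes Akt1 and Akt2 went the other way from Eras and Tcl1. Akt1 had 53.5 and 49.3 CPM in iPSC, 214 and 221 CPM in d6_Eff and 537 and 494 CPM in MEF. It was lower in iPSC than in MEF by −3.32 ± 0.18 (adjusted p = 1.17e-07) and than in d6_Eff by −2.08 ± 0.17 (adjusted p = 5.39e-06). Akt2 was also called lower in iPSC than in MEF (−0.99 ± 0.19, adjusted p = 0.000930). Among all 17 partners and effectors listed, 8 were called higher and 6 lower in iPSC than in MEF. Of all genes, 26% were called higher and 26.7% lower.

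Fbxo15 (ENSMUSG00000034391, chromosome 18) encodes an F-box protein, the part of an SCF ubiquitin ligase that binds the substrate, and is known as a reporter of reprogramming. It had 6.93 and 8.89 CPM in d3_Eff, 22.4 and 22.6 CPM in d6_Eff and 128 and 125 CPM in iPSC. It had 9.75 and 12.3 CPM in d3_Ineff and 33.4 and 27.8 CPM in d6_Ineff, against 0.310 and 0.419 CPM in MEF. The Ineff libraries lay above the Eff libraries on both days, as for 20.7% of all genes on day 3. That share was not counted for day 6. Neither difference was called by edgeR (adjusted p = 0.623 on day 3 and 0.201 on day 6). The steps from day 3 to day 6 were 1.51 ± 0.22 in Eff cells (adjusted p = 0.00146) and 1.48 ± 0.22 in Ineff cells (adjusted p = 0.00435). The second was lost without d3_Ineff replicate 1 (adjusted p = 0.0738). Of the core subunits of the ligase, Skp1a, the adaptor that holds F-box proteins, had 864 and 882 CPM in iPSC and 259.9 and 538 CPM in MEF (1.13 ± 0.30, adjusted p = 0.00810). Cul1, the scaffold, had 101 and 97.2 CPM in iPSC and 115 and 92.5 CPM in MEF and was not called (−0.07 ± 0.19, adjusted p = 0.783).

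The comparison of Eff with Ineff cells asks how populations with different labelled efficiency differ on the same day. On day 6, Utf1, Dppa5a, Eras and Morc1, 4 of 10 genes, were called higher in d6_Eff than in d6_Ineff, where 5.37% of all genes were. The log2 fold change was 2.17 ± 0.31 for Utf1 (adjusted p = 0.00149), 3.58 ± 0.51 for Dppa5a (adjusted p = 0.00103), 5.41 ± 0.79 for Eras (adjusted p = 0.00166) and 2.24 ± 0.56 for Morc1 (adjusted p = 0.0247). The Morc1 call was lost without d6_Ineff replicate 2 (0.149), d6_Eff replicate 1 (0.113), d6_Eff replicate 2 (0.0718), iPSC replicate 1 (0.0538) or iPSC replicate 2 (0.0512, all adjusted p). L1td1 and Fbxo15 were not called, at 0.08 ± 0.21 and −0.44 ± 0.21 (adjusted p = 0.862 and 0.201).

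On day 3 none of the 10 genes was called between d3_Eff and d3_Ineff by edgeR, where 0.4% of all genes were called in either direction and 0.16% higher. Of the 10, 1 gene, Utf1, passed an unadjusted p under 0.05, and DESeq2 called it too (adjusted p = 2.50e-06). Utf1 was 2.21 ± 0.40 higher in d3_Eff (adjusted p = 0.0564 by edgeR), a difference of the size seen on day 6. Over 12 refits that each left out 1 library, the Utf1 difference ranged from 1.54 to 3.32. Both d3_Eff libraries lay above both d3_Ineff libraries for 3 of the 10 genes, as for 19.7% of all genes, and below them for 1 gene, as for 20.7% of all genes. The 3 were Utf1, Eras at 1.82 ± 0.96 (adjusted p = 0.706) and Morc1 at 0.89 ± 0.65 (adjusted p = 0.855), and the 1 was Fbxo15 at −0.48 ± 0.22 (adjusted p = 0.623).

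Whether the Eff against Ineff difference changed from day 3 to day 6 was tested as an interaction. The sort used CD73 on day 3 and EpCAM on day 6, so a change of day and of sort cannot be told apart. By edgeR none of the 10 genes was called (1.39% of all genes in either direction, 0.296% higher), 2 passed an unadjusted p under 0.05 and DESeq2 called 2, which were Dppa5a and Eras. The change for Dppa5a was 4.46 ± 1.02 (adjusted p = 0.0684). Over 12 refits that each left out 1 library, it ranged from 3.43 to 5.13. For Utf1 the change was −0.04 ± 0.40 (adjusted p = 1.00).

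**Figure D3:**
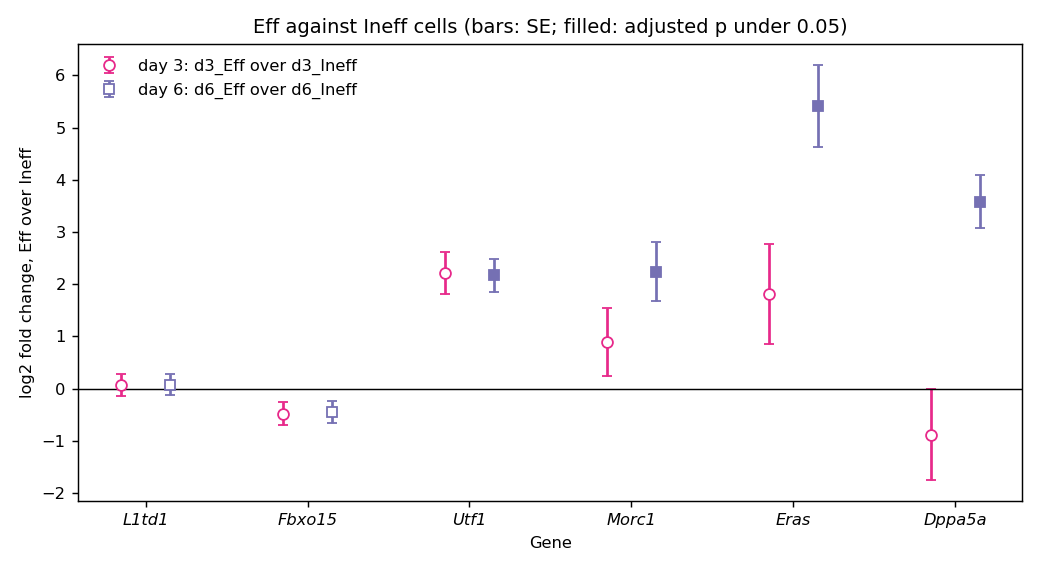
Log2 fold change of Eff over Ineff cells for the 6 genes with a measurable level, on day 3 (circles) and day 6 (squares); bars are SE, and filled symbols passed an adjusted p of 0.05. Utf1 lies near 2.2 on both days, Eras and Dppa5a are filled on day 6, and L1td1 stays at 0.08.

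Markers of other cells moved along the same day 6 split. The 12 fibroblast markers summed to 1040.2 and 788 CPM in d6_Eff and to 5844 and 5627 CPM in d6_Ineff, with 7 of 12 called lower in d6_Eff, where 9.25% of all genes were. The 6 endothelial markers summed to 81.4 and 81.0 CPM in d6_Eff and to 155 and 161 CPM in d6_Ineff, with 2 of 5 tested called lower. Of 5 trophoblast markers tested, 2 were called higher in d6_Eff, where 5.37% of all genes were. The 6 on the list summed to 39.2 and 44.97 CPM in d6_Eff and to 14.3 and 14.5 CPM in d6_Ineff. Most of that was Tfap2c, which pluripotent cells also express, and Cdx2 and Hand1 were at 0 in d6_Eff. The 8 leukocyte markers summed to 7.21 and 4.46 CPM in d6_Eff and to 6.31 and 8.17 CPM in d6_Ineff, and Ptprc, which marks all leukocytes, was at 0 in all 4 libraries. The 6 primitive endoderm markers summed to 6.63 and 1.06 CPM in d6_Eff and to 30.8 and 40.1 CPM in d6_Ineff, with 1 of 5 tested called lower. The part of these cells in the values of the 10 genes was not tested.

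Eff and Ineff cells were sorted by CD73 and Sca1 on day 3 and by EpCAM and Sca1 on day 6. Day and sort therefore cannot be told apart between the days. From d3_Eff to d6_Eff, 5 of 10 genes were called higher, where 4.24% of all genes were (Utf1, Dppa5a, Eras, Fbxo15 and Morc1). In Ineff cells 2 of 10 were called higher, where 3.19% of all genes were (Utf1 and Fbxo15). The Morc1 step in Eff cells was 2.61 ± 0.57 (adjusted p = 0.0183). It was lost without d3_Eff replicate 1 (0.140), d3_Eff replicate 2 (0.110), d6_Eff replicate 1 (0.0808) or d6_Eff replicate 2 (0.0527, all adjusted p). From d6_Eff to iPSC, 9 of 10 genes were called higher, where 13.6% of all genes were. For 4 of them, Dppa2, Dppa3, Dppa4 and Tcl1, a difference was built into passing the filter on low counts.

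Other genes of pluripotent cells were set beside the 10. The median share of the iPSC level in d6_Eff was 6.16% for the 10 genes, 6.45% for 15 pluripotency transcription factors and 11.0% for 21 other markers. None of the 10 genes lay near their median, since 5 were under 1% and 5 at 10% or more. It is the midpoint of Dppa3 (0.181%) and Morc1 (12.1%). In d3_Eff the medians were 0.301%, 2.15% and 3.13% in that order. Of the 15 factors, 8 were called higher and 2 lower in d6_Eff than in d6_Ineff, where 5.37% of all genes were called higher and 9.25% lower. Nanog, a core factor, had 67.5 and 58.4 CPM in d6_Eff and 4.23 and 5.70 CPM in d6_Ineff (3.66 ± 0.37, adjusted p = 0.000164). Esrrb, an orphan nuclear receptor of naive cells, went the other way (−2.14 ± 0.33, adjusted p = 0.00166). Slc7a3, an arginine transporter gene, also stood above its iPSC mean in all 4 sorted populations, at 309% in d3_Eff and 168% in d3_Ineff, with 31.5% in MEF. All 4 reprogramming factors were called higher than in MEF in d3_Eff (18% of all genes) and in d3_Ineff (15% of all genes). Whether reads from the reprogramming cassette are among their counts was not tested. Genes of the totipotent stage after the first cleavage, some of which depend on Dppa2 and Dppa4 in mouse cells, had no count outside iPSC. There the 6 matched genes summed to 1.42 and 0.790 CPM.

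**Figure D4:**
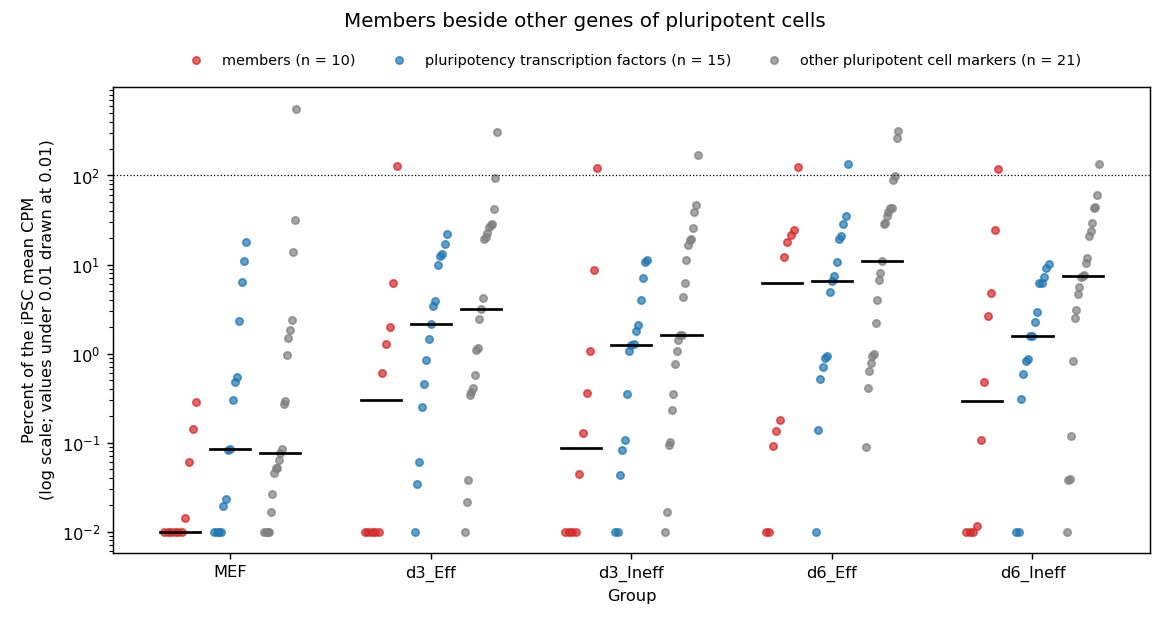
Each gene's group mean as a percent of its iPSC mean, on a log axis with values under 0.01 drawn at 0.01, for the 10 genes (members), 15 pluripotency transcription factors and 21 other markers; black lines are medians and the dotted line marks 100. In d6_Eff the medians of the 10 genes and of the factors are 6.16 and 6.45, and in d3_Eff they are 0.301 and 2.15. None of the 10 genes lies near the median of 6.16 in d6_Eff, since 5 are under 1 and 5 at 10 or more.

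Several of the 10 genes sit beside other genes of pluripotent cells, and the neighbours named here were chosen after their values were seen. Dppa3 on chromosome 6 lies between Gdf3 and Nanog, followed by the glucose transporter gene Slc2a3. Nanog had 635 and 557 CPM in iPSC, 67.5 and 58.4 CPM in d6_Eff and 0.722 and 0.279 CPM in MEF. Slc2a3 had 1879 and 1951 CPM in iPSC, 298 and 270 CPM in d6_Eff and 18.2 and 22.3 CPM in MEF. Both were called higher than MEF in d3_Eff, when Dppa3 had no count. Ooep, an oocyte gene next to Dppa5a on chromosome 9, had 75.3 and 79.2 CPM in iPSC, 1.74 and 2.00 CPM in d6_Eff and 0.619 and 0.279 CPM in MEF. On chromosome 16, Dppa4 lies next to Dppa2, and Morc1 beyond 1 other annotated gene. Morc1 was called by day 3, while Dppa4 and Dppa2 were at the limit of detection until iPSC.

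**Figure D5:**
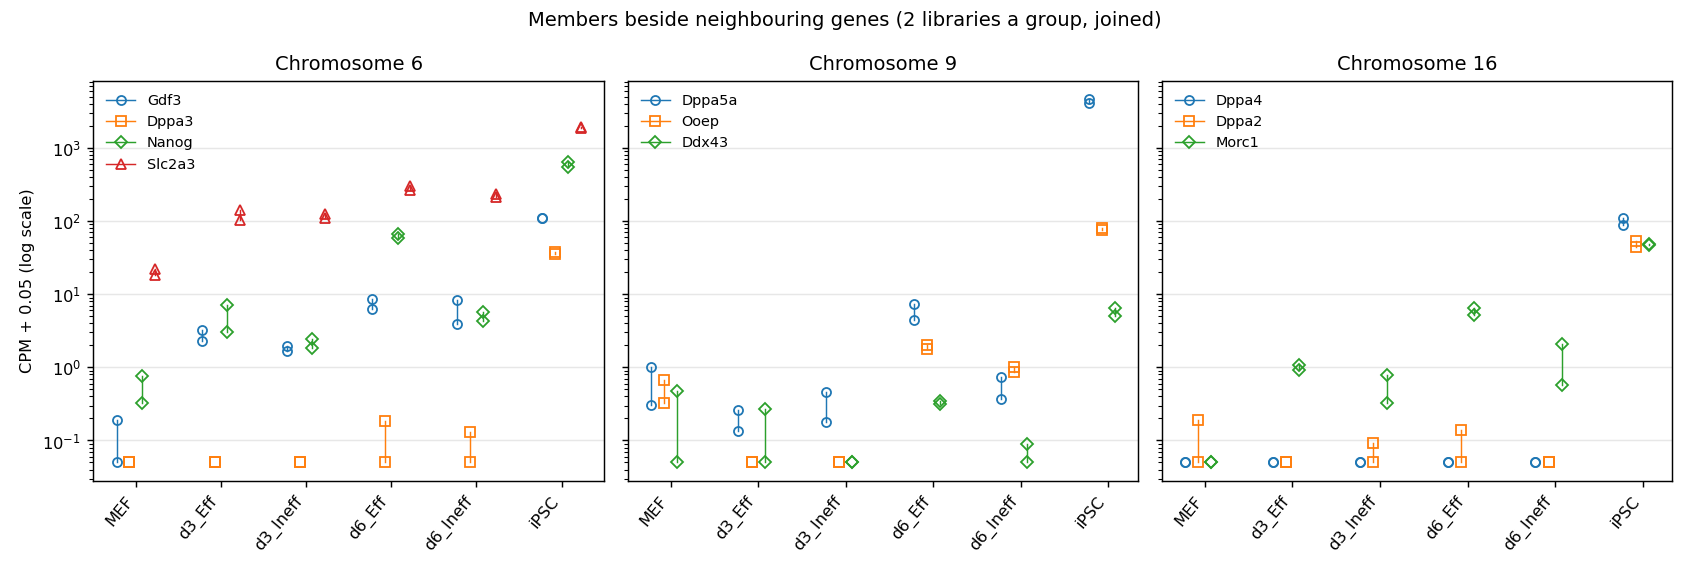
CPM plus 0.05 on a log axis for Dppa3, Dppa5a, and for Dppa4, Dppa2 and Morc1, beside neighbouring genes, in 3 panels by chromosome; the 2 libraries of a group are joined by a line. On chromosome 6, Gdf3, Nanog and Slc2a3 are above 0 in the sorted populations in which Dppa3 is at or near 0, and on chromosome 16 Morc1 is detected where Dppa4 is at 0.

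The genes most like each of the 10 were taken by Pearson r of log2 CPM over the 12 libraries, among 11464 genes, as a description. Utf1 was most like Gng3 (r = 0.987), a G protein subunit gene, and the apolipoprotein gene Apoe (r = 0.985). Apoe had 190.3 and 211 CPM in d6_Eff and 57.6 and 65.7 CPM in d6_Ineff. L1td1 was most like Gprasp2 (r = 0.992) and Pipox (r = 0.992). Its level was near 0 in MEF and high in every other group, so these r mainly reflect MEF against the rest. Pipox, a peroxisomal oxidase gene, had 47.9 and 44.7 CPM in d3_Eff, 0.0516 and 0 CPM in MEF and 50.4 and 44.1 CPM in iPSC. Fbxo15 was closest to Chchd10 (r = 0.981), Morc1 to Ralgps2 (r = 0.983) and Eras to Tdrd5 (r = 0.977), a gene of germline transposon silencing. Dppa5a was closest to Hrk (r = 0.990) and to Prdm14 (r = 0.989), a transcriptional regulator of naive pluripotency with 54.3 and 50.4 CPM in iPSC and 0.223 and 0.763 CPM in d6_Eff. Dppa2 was closest to Triml2, Dppa3 to Zfp988, Dppa4 to Pnma5 and Tcl1 to Myl7, all with r above 0.99, in profiles that are near 0 in 10 of 12 libraries. By Spearman r, Apoe, Triml2 and Myl7 were also among the 3 genes most like their member, and the other genes named here were not.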

How the data were processed

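Poly-A RNA of 12 samples was made into libraries with a directional kit, per the labels' protocols. The authors deposited raw counts per gene. STAR 2.3.0, HTSeq 0.6.0, Picard 1.100 and the mm9 build are named in the submitters' processing notes, and reads were counted without regard to strand, per the names of the deposited files. Which annotation was counted on is not stated there. The 5 summary lines of each count file were kept out of library sizes and tests. Symbols were found for 87.4% of the 37583 gene IDs, and 5 of 147 list entries were not matched. Exon lengths and gene neighbours came from an annotation on GRCm38 and carry no coordinates of the files' build.

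The counts were fitted once over all 12 libraries with edgeR 4.0.16 in R 4.3.3 (limma 3.58.1), with TMM scaling and the edgeR filter on low counts over 6 groups, leaving 6 residual degrees of freedom. The biological coefficient of variation was 28.0%. The code was tested on simulated data. Intervals and limits from 3 counts cover counting error only. The 10 genes and all lists were chosen with earlier results of these data known. Named beside them are up to 3 called genes per list, direction and comparison with the smallest adjusted p, the 3 genes of highest Pearson r for each of the 10, and defining markers. Cdh5, Emcn, Cul1, Prdm14, Mov10l1, Piwil2, Uhrf1, Slc7a3, Akt1 and Akt2 were picked from the lists after their values were seen where this rule does not name them. Alternatives were DESeq2 1.42.0, DESeq2 size factors, no filter, fits of the compared libraries alone, library sizes that include reads outside genes, the replicate number as a block, and leaving out libraries.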

Additional observations from a re-analysis of the deposited data

How the results depend on the processing

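Over the other settings listed in the methods 0 of the called log2 fold changes of the 10 genes reversed, while 20 became called and 28 lost their call. Of the fold changes that were not called, 15 changed sign under at least 1 setting, among them Dppa2 in d6_Eff against MEF (−2.84 to 3.20 without single libraries) and Eras in d6_Ineff against d3_Ineff (−4.45 to 2.06). Counts of genes called among the 10 moved as follows, where only changes by more than a factor of 1.5, or to or from 0, are listed. Smaller changes are left out, such as 9 genes higher by DESeq2 against 10 by edgeR in iPSC against MEF. The counts over all genes given below follow the same rule. DESeq2 called 1 lower in d3_Eff against MEF, 1 higher between d3_Eff and d3_Ineff and 2 in the change between days. Without a filter, 1 was called between the day 3 populations and 2 in the change between days. Fits of the compared libraries alone called 2 higher in d3_Ineff against MEF, 1 between the day 3 populations, 1 lower in iPSC against d6_Eff and 1 in the change between days. In the first of these, Utf1 and Morc1 did not pass that fit's filter on low counts and were not tested. Library sizes with reads outside genes called 1 higher in d6_Ineff against d3_Ineff, and they shift the median of all genes by 0.48 to 0.59 on the log2 scale against MEF. Those sizes ended the calls of Morc1 in d6_Eff against d6_Ineff (adjusted p = 0.117) and against d3_Eff (0.0725), of Fbxo15 in d6_Ineff against d3_Ineff (0.0880) and of Eras in iPSC against d6_Eff (0.0906). Without a filter Eras was called in d6_Ineff against MEF (adjusted p = 0.0200). Without MEF replicate 2 and d6_Eff replicate 2, 1 was called between the day 3 populations and 1 in the change between days. Leaving out single libraries gave 0 to 1 lower in d3_Eff against MEF, 0 to 1 between the day 3 populations, 1 to 2 in d6_Ineff against d3_Ineff, 3 to 5 in d6_Eff against d3_Eff and 0 to 1 in the change between days. The cause was not tested.

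Replicate numbers were not used as pairs in the main fit. Over 15 pairs of groups the deviations of same-numbered samples correlated at −0.10 to 0.21, and 2 pairs exceeded 0.1. With 2 libraries per group this cannot settle whether same-numbered samples share an origin, which is not stated. With the replicate block, 1 of the 10 genes, Dppa5a, was called in the change between days (adjusted p = 0.0497).

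Over all genes, 65 were called between the day 3 populations, against 425 with DESeq2, 459 without a filter, 700 with the compared libraries alone, 3 with reads outside genes and 4 to 644 without single libraries. The change between days gave 225, against 807, 832, 1237, 3 and 20 to 1349 in the same order. Counts between d6_Eff and d6_Ineff were 2374, against 5002 with the compared libraries alone, 569 with reads outside genes and 930 to 4715 without single libraries. For d6_Ineff against d3_Ineff they were 717, against 1568, 1362, 2574, 92 and 103 to 2608, and for d6_Eff against d3_Eff 1479, against 2245 with DESeq2, 2443 with the compared libraries alone, 480 with reads outside genes and 657 to 2958. For iPSC against d6_Eff they were 4801, against 7657 with the compared libraries alone, 2430 with reads outside genes and 2834 to 6815. Against MEF, d3_Ineff gave 4876, against 2138 with the compared libraries alone, 3110 with reads outside genes and 2946 to 6798. For d3_Eff the count was 5935, against 3247 with the compared libraries alone. For d6_Ineff it was 5002, against 2344, 3137 and 3112 to 7238, and for d6_Eff 6914, against 3968 with the compared libraries alone.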
